A study of Mus musculus with 1307 samples.

Results

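The interstitial fibroblasts described here were 171 of 1307 single cells from mouse hearts. They were chosen by their own transcript levels, as counts per 1000000 counts of the cell (CPM). A member held at least 1000 CPM of Dcn (decorin, a proteoglycan of fibroblast matrix) and at least 300 CPM of Pdgfra and Tcf21 together. Pdgfra encodes the alpha receptor for platelet-derived growth factor, and Tcf21 is a transcription factor of the fibroblast lineage of the heart. Cells with 500 CPM or more of the valve genes Wif1, Chad, Prg4 and Angptl7 in sum were left out. So were cells with 500 CPM or more of Cilp and Thbs4 together, with 200 CPM or more of the mesothelial genes Msln and Upk3b together, or with 500 CPM or more of Vtn (a pericyte gene) or of Myh11 (smooth muscle myosin). These 13 genes chose the cells, so their levels are given below as a description, without a test.

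The series profiled smooth muscle cells of the heart and the cells around them, each cell with Smart-Seq2, which reads whole transcripts and carries no molecular identifiers. Animals were 8 to 30 weeks old, and the labels name 4 groups. ACTA2GFP:CSPG4dsRED mice, called double-reporter mice here because they carry reporters for the smooth muscle gene Acta2 and the mural gene Cspg4, gave 368, 245 and 336 cells for mice 1, 2 and 3. C57BL/6 mice gave 347 cells for mouse 1 and 4 and 1 for 2 others, and 1 CSPG4dsRED mouse gave 3 cells. The ACTA2GFP group gave 3 cells, counted here as 1 mouse. Of these cells 1 is labelled female and 2 male, so that count of animals is uncertain. The labels name no deletion and no treatment in any animal. Which fluorescence gate was used in the sort is not stated in the labels, so a share of cells is a share of what was sorted and not of the heart. Double-reporter mouse 3 is labelled female although the series describes male animals, and its members held 925 CPM of Xist against 0.179 and 0 CPM in mice 1 and 2. Mouse, plate and sex cannot be told apart, because each large animal filled a plate of its own.

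Cardiac fibroblasts of the interstitium lie between the muscle cells and make and turn over the collagen network that holds them. Most express Pdgfra and Tcf21, and they are also a source of complement proteins, chemokines and growth factor modulators. Fibroblasts of the valves are a distinct population that lays down matrix akin to that of cartilage and tendon. A further set marked by Cilp and Thbs4, genes of matrix proteins, is linked to matrix remodelling.

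Membership was spread very unevenly over the mice. Double-reporter mouse 1 gave 14 members, mouse 2 gave 23 and C57BL/6 mouse 1 gave 2, and all the others came from double-reporter mouse 3, for which shares of members are given in percent below. The 4 mice with few cells gave 0 of their 11. Members made up 3.80% of the sorted cells of double-reporter mouse 1 (95% exact binomial interval 2.10 to 6.30) and 9.39% of those of mouse 2 (6.04 to 13.8). The share was 39.3% for mouse 3 (34.0 to 44.7) and 0.576% for C57BL/6 mouse 1 (0.0699 to 2.07). The intervals of double-reporter mice 1 and 2 overlap slightly, and that of mouse 3 lies far above both. Among cells with at least 1000 CPM of Dcn the same order held, with 14 of 141 (9.93%), 23 of 131 (17.6%), 51.4% of 257 cells, and 2 of 46 (4.35%). Intervals cover the counting of cells only, and each share comes from 1 animal.

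Of the 1307 cells, 578 met the Dcn condition and 285 of these also met that on Pdgfra and Tcf21. The valve condition then left 223, the Cilp and Thbs4 condition 189, the mesothelial condition 189, the Vtn condition 179 and the Myh11 condition 171. The bound on Pdgfra plus Tcf21 ran through a continuous range of values. The 5 lowest members held 302.25, 304.67, 320.52, 324.96 and 326.38 CPM, and the 5 highest cells just outside held 299.72, 286.3, 286.25, 285.36 and 284.07. In all, 18 members lay under 400 CPM and 21 cells outside lay at 200 CPM or more. A total of 276 cells met every other condition, and 105 of them fell short of 300 CPM, including 47 with no count of either gene, of which 38 came from C57BL/6 mouse 1.

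Pdgfra and Tcf21 were not always found in the same cell. Both reached 100 CPM in 115 members, Pdgfra alone in 30 and Tcf21 alone in 26. Within mice both genes reached 100 CPM in 5 of 14 cells of mouse 1, 20 of 23 of mouse 2 and 89 cells (67.4%) of mouse 3. Median Pdgfra was 314, 805 and 519 CPM per cell and median Tcf21 290, 274 and 327 CPM. Cells with under 100 CPM of Dcn were taken as the background, though absence of both genes from them was not shown. Myh11 reached 100 CPM in 98 of 176 such cells of mouse 1 and 61 of 77 of mouse 2. Pdgfra reached 100 CPM in 2 of 176 such cells in mouse 1 and 0 of 77 in mouse 2 (0 of 77 allows a share of up to 3.9%), while Tcf21 did so in 24 of 176 and 4 of 77. Median depth was 409326, 232315 and 243111 counts in the members of mice 1, 2 and 3, against 337342 and 182256 in the background cells of mice 1 and 2. Mouse 3 had only 1 background cell.

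The label also names Smoc2, Dpep1, Svep1 and Cxcl14, which the rule did not use. Smoc2, a calcium-binding matrix protein, reached 100 CPM in 2 of 14, 13 of 23 and 87.9% of members, with medians of 0, 396 and 2408 CPM. Dpep1, a membrane dipeptidase, reached it in 5 of 14, 17 of 23 and 81.1%, with medians of 1.04, 2250 and 998 CPM. Both genes were thus plain in most cells of mice 2 and 3 and in few cells of mouse 1. Svep1, a large adhesion protein of the matrix, reached 100 CPM in 1 of 14, 10 of 23 and 61.4% of members. Cxcl14, a chemokine, did so in 0 of 14, 2 of 23 and 13.6%, so that it marked a minority of the members in each of the 3. The 0 of 14 in mouse 1 allows a share of up to 21.4% (3 cells of the total). Background cells with under 100 CPM of Dcn reached 100 CPM of Smoc2 in 1 of 176 and 0 of 77 cells of mice 1 and 2, of Dpep1 in 2 and 0, and of Svep1 and Cxcl14 in none.

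**Figure D1:**
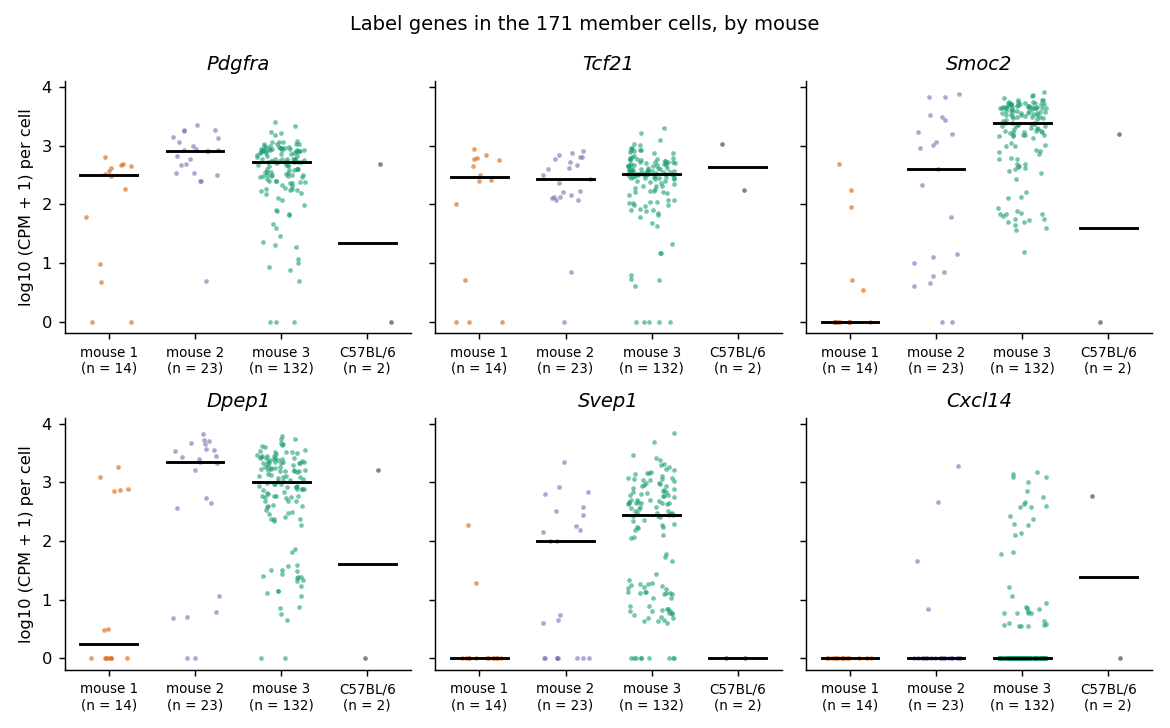
Level of the 6 label genes in each member cell, by mouse, as log10(CPM + 1), where each point is a cell and each bar the median of that mouse. Smoc2 and Dpep1 are high in most cells of double-reporter mice 2 and 3 and near 0 in most of mouse 1, and Cxcl14 is at 0 in most cells of each double-reporter mouse.

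The 14 members of mouse 1 therefore went against the label in part. Their summed level of Smoc2, Dpep1, Svep1 and Cxcl14 had a median of 53.3 CPM per cell, against 3649 in mouse 2 and 4297 in mouse 3. The genes of smooth muscle ran the other way. The sum of 8 smooth muscle markers (Myh11, Acta2, Tagln, Cnn1, Myocd, Smtn, Lmod1 and Mylk) had medians of 2332, 816 and 223 CPM per cell in mice 1, 2 and 3, with ranges of 1324 to 5748, 131 to 10305 and 4.76 to 3445 CPM. It passed 500 CPM in 14 of 14, 14 of 23 and 40 members of the 3 mice. Acta2 over the summed cells was 1520, 1239 and 179 CPM and Tagln 491, 347 and 8.76 CPM. Of the 8 markers, 4, 3 and 2 reached 100 CPM in the sums of the 3 mice, and Cnn1 and Myocd were under 1 CPM in mouse 3.

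Pericyte markers followed the same order. The sum of 8 (Vtn, Kcnj8, Abcc9, Rgs5, Notch3, Cspg4, Higd1b and Steap4) had medians of 756, 524 and 59.4 CPM, and 4, 3 and 0 of them reached 100 CPM in the sums. Valve-like fibroblasts, defined below, held 1035, 646 and 427 CPM of the smooth muscle markers and 501, 367 and 196 of the pericyte markers. By these medians the members stood above that class in mice 1 and 2 and below it in mouse 3. With both sets added up without Vtn and Myh11, which the rule used, the medians were 2802, 969.9 and 438 CPM in the members and 1637, 1074 and 686 in valve-like cells, so that the members of mouse 2 then lay below. The 10 general fibroblast markers summed to medians of 18832, 24467 and 26150 CPM, with 10 of 10 at 100 CPM or more in each sum. Levels of mouse 1 are mostly given beside those of the other mice, but means over mice and the main fits include it. The part of mural transcripts in any difference was tested only by leaving out the cells that held them.

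In the double-reporter mice, markers of the other cell types had medians under 200 CPM per member. The 11 endothelial markers had medians of 11.5, 34.9 and 146 CPM per cell. Their sum passed 500 CPM in 3 of 14 members of mouse 1, 6 of 23 of mouse 2 and 15 of mouse 3. Mouse 3 had by far the most members, and its share was the lowest of the 3. Over the summed cells these markers held 210, 266 and 199 CPM, and 0, 1 and 1 of them reached 100 CPM. Cdh5, Kdr and Tie1 were under 1 CPM in all 3 sums. Endocardial markers had medians of 9.86, 18.02 and 19.0 CPM, against 102, 89.2 and 138 in valve-like cells. The 8 Schwann cell markers had medians of 7.02, 4.30 and 8.13 CPM, with Sox10 under 1 CPM in each sum. Cardiomyocyte markers had medians of 16.5, 6.52 and 31.8 CPM, and passed 500 CPM in 1 of 14, 3 of 23 and, in mouse 3, 9 cells. Macrophage markers had medians of 0, 0 and 33.8 CPM with Ptprc under 1 CPM in each sum, and the medians of the lymphocyte and neutrophil markers were 0. Of the proliferation markers, the median was 0 in each mouse, and 1 member, in mouse 3, passed 500 CPM.

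**Figure D2:**
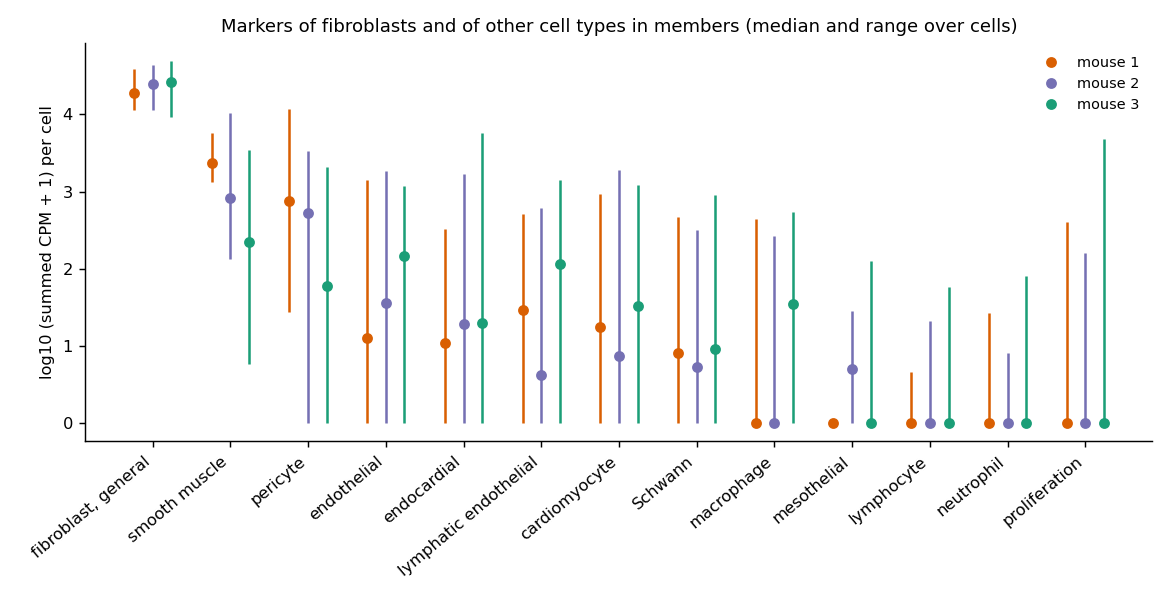
Summed marker levels of fibroblasts and other cell types per member cell of the 3 double-reporter mice, as log10(summed CPM + 1), with the median as a point and the range over cells as a line. Of these 3 mice, mouse 1 has the highest medians of smooth muscle and pericyte markers (2332 and 756 CPM), and the medians of lymphocyte and neutrophil markers are 0.

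The 2 members from C57BL/6 mouse 1 were unlike each other. Cell 1 held 1048 CPM of Tcf21, no count of Pdgfra, Smoc2, Dpep1 or Cxcl14, and 641 CPM of Rgs5, 529 of Kcnj8 and 446 of Abcc9, which are pericyte genes. Cell 2 held 487 CPM of Pdgfra, 174 of Tcf21, 1604 of Smoc2, 1651 of Dpep1 and 594 of Cxcl14, together with 1132 CPM of the endothelial gene Pecam1. Their summed markers were 608 and 5588 CPM for endothelial cells, 77.2 and 3180 for cardiomyocytes, 11.6 and 2375 for Schwann cells and 20.3 and 805 for macrophages, each pair given from low to high. With 1 such animal and 2 cells, no comparison of the strains was made for this class.

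To see what the members expressed most, counts were summed over the members of each double-reporter mouse (5597628, 5772909 and 32548933 counts) and levels were divided by exonic length, in CPM per kilobase. Gsn (gelsolin, an actin-severing protein) led with a mean of 2808 CPM per kilobase, from 5443, 9342 and 11811 CPM in mice 1, 2 and 3. After it came B2m (1588 CPM per kilobase), the light chain of class I molecules, Gpx3 (1531), a secreted glutathione peroxidase, and Mgp (1445), an inhibitor of calcification. Igfbp7 (1405), an insulin-like growth factor binding protein, Serping1 (1367), the inhibitor of complement C1, and Apoe (1245), a lipid carrier, were next. Ifitm3 (1118), Actb (1080), Cst3 (1073), Lum (1025), Dcn (992), Mfap4 (938), Imp3 (933) and Bgn (933) closed the 15 highest. Lum, Dcn and Bgn are small proteoglycans of the collagen network. Dcn, a gene of the rule, was 4261, 6575 and 6541 CPM.

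The label genes lay far lower per length, with Dpep1 at a mean of 516.95 CPM per kilobase, Smoc2 at 206, Tcf21 at 149, Pdgfra at 57.6, Cxcl14 at 31.8 and Svep1 at 17.7. Summed over members, Smoc2 was 58.6, 1571 and 2658 CPM (mean 1429 ± 1306 SD, n = 3 mice) and Dpep1 355, 2152 and 1348 CPM (mean 1285 ± 901). The SD of Smoc2 over mice was close to its mean. Tcf21 was 320, 356 and 373 CPM (mean 350 ± 26.7). The rule set a lower bound on Tcf21 plus Pdgfra in each member, so this spread cannot be set against that of Smoc2. Pdgfra was 280, 902 and 549 CPM (mean 577 ± 312), Svep1 was 11.3, 300 and 545 CPM, and Cxcl14 was 0, 98.0 and 76.1 CPM. On GRCm38 these genes lie at chr5:75152292-75198215 (Pdgfra, plus strand), chr10:22817281-22820174 (Tcf21, minus), chr17:14279506-14404790 (Smoc2, plus), chr8:123186242-123201812 (Dpep1, plus), chr4:58042442-58206859 (Svep1, minus) and chr13:56288643-56296551 (Cxcl14, minus).

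The members were compared with fibroblasts that met the same conditions on Dcn, Vtn, Myh11 and mesothelial genes. Valve-like fibroblasts, with 500 CPM or more of the 4 valve genes, numbered 60, 73 and 55 in double-reporter mice 1, 2 and 3. Cilp/Thbs4 fibroblasts, with 500 CPM or more of these genes and less of the valve genes, numbered 1, 11 and 29. Neither class carried a condition on Pdgfra and Tcf21. The valve-like class also had no bound on Cilp and Thbs4, so cells with much of these genes were not left out of it. Cilp reached 100 CPM in 25 of 60, 39 of 73 and 26 of 55 valve-like cells of mice 1, 2 and 3. Each mouse's counts were added up within a class where it had at least 5 such cells, and the 8 sums were fitted together over 15703 genes with edgeR's quasi-likelihood test and the mouse as a block. A gene is said to be called where its Benjamini-Hochberg adjusted p was under 0.05. In such sums, fewer expressing cells and less RNA per expressing cell cannot be told apart.

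Against valve-like fibroblasts 9 genes were called, 0.0573% of those tested, with 2 higher in the members (0.0127%) and 7 lower (0.0446%). An unadjusted p under 0.05 was reached by 1075 genes, and DESeq2 on the same sums called 555, of which 213 were higher (1.36%) and 342 lower (2.18%). Of the 9, Prg4, Cilp, Chad and Angptl7 belong to the rule and Smoc2 to the label, and they are read as neither finding nor test. The other 4 were Hsd11b1, which was higher in the members, and Thbs1, Cyp26a1 and Fxyd6, which were lower.

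Thbs1 encodes thrombospondin 1, a matricellular protein that activates latent TGF-beta (chr2:118111876-118127133, plus strand). It was 120, 260 and 139 CPM in the members of mice 1, 2 and 3, against 1968, 2506 and 1010 CPM in valve-like cells. All members' sums lay below all valve-like sums, and the log2 difference was -3.37 (SE 0.269, edgeR adjusted p = 0.0219). Per cell, Thbs1 reached 100 CPM in 5 of 14, 7 of 23 and 18.9% of members and in 54 of 60, 52 of 73 and 26 of 55 valve-like cells. In cells with under 100 CPM of Dcn it did so in 16 of 176 and 20 of 77 cells of mice 1 and 2.

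Cyp26a1, the enzyme that clears retinoic acid (chr19:37697798-37701536, plus strand), was close to absent from the members. It was 0.357, 0.866 and 0.399 CPM in their sums and 256, 197 and 95.6 CPM in the valve-like sums, a log2 difference of -8.22 (SE 0.773, edgeR adjusted p = 0.0395). No member reached 100 CPM, which allows shares of up to 21.4%, 13% and 2.27% in the 3 mice, and 2, 5 and 12 cells had any count, with a highest value of 12.1 CPM. Among valve-like cells 21 of 60, 24 of 73 and 10 of 55 reached 100 CPM, so there too it was expressed by a minority.

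Hsd11b1 encodes the enzyme that regenerates active glucocorticoid inside the cell (chr1:193221634-193264075, minus strand). Members held 142, 786 and 304 CPM and valve-like cells 25.6, 90.0 and 40.1 CPM, with each mouse higher in the members and no overlap between the classes. The log2 difference was 2.86 (SE 0.274, edgeR adjusted p = 0.0395). It reached 100 CPM in 4 of 14, 17 of 23 and 44.7% of members, against 7 of 60, 7 of 73 and 8 of 55 valve-like cells and 10 of 176 and 0 of 77 cells with under 100 CPM of Dcn.

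Fxyd6, a regulator of the sodium pump (chr9:45370185-45396159, plus strand), was present in both classes and differed in level. It was 380, 542 and 357 CPM in the members (mean 426 ± 101 SD, n = 3 mice) and 1328, 1414 and 1092 CPM in valve-like cells (mean 1278 ± 167). The log2 difference was -1.59 (SE 0.153, edgeR adjusted p = 0.0395). At least 100 CPM was found in 10 of 14, 16 of 23 and 73.5% of members and in 60 of 60, 72 of 73 and 51 of 55 valve-like cells.

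The 4 calls were lost under several other choices, although their direction held. With at least 300 CPM of Pdgfra and Tcf21 asked of every class, the log2 difference was -2.54 for Thbs1 (edgeR adjusted p = 0.521), -8.14 for Cyp26a1 (0.159), 3.01 for Hsd11b1 (0.163) and -1.33 for Fxyd6 (0.163), so none was called. With only the 2 classes in the fit, Cyp26a1 was called (edgeR adjusted p = 0.0225) and Thbs1 (0.0721), Hsd11b1 (0.0721) and Fxyd6 (0.132) were not. Thbs1 was the one of the 4 that was still called when Pdgfra plus Tcf21 was set at 600 CPM (edgeR adjusted p = 0.038) or 150 CPM (0.0231) and without cells over 500 CPM of other cell types' markers (0.0231). Without mouse 1, 2 or 3 in turn, none of the 4 stayed under an edgeR adjusted p of 0.05, with Thbs1 at 0.0549, 0.769 and 0.11, Cyp26a1 at 0.228, 0.345 and 0.11, Hsd11b1 at 0.207, 0.806 and 0.19 and Fxyd6 at 0.228, 0.744 and 0.234. Their log2 differences kept their sign, at -3.05 to -3.66 for Thbs1, -7.82 to -8.52 for Cyp26a1, 2.68 to 3.04 for Hsd11b1 and -1.49 to -1.73 for Fxyd6. Leaving out all cells over 500 CPM of smooth muscle or pericyte markers removed mouse 1 and gave -1.96 for Thbs1 (edgeR adjusted p = 0.0798), -7.51 for Cyp26a1 (0.131), 2.97 for Hsd11b1 (0.0509) and -2.04 for Fxyd6 (0.0493).

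**Figure D3:**
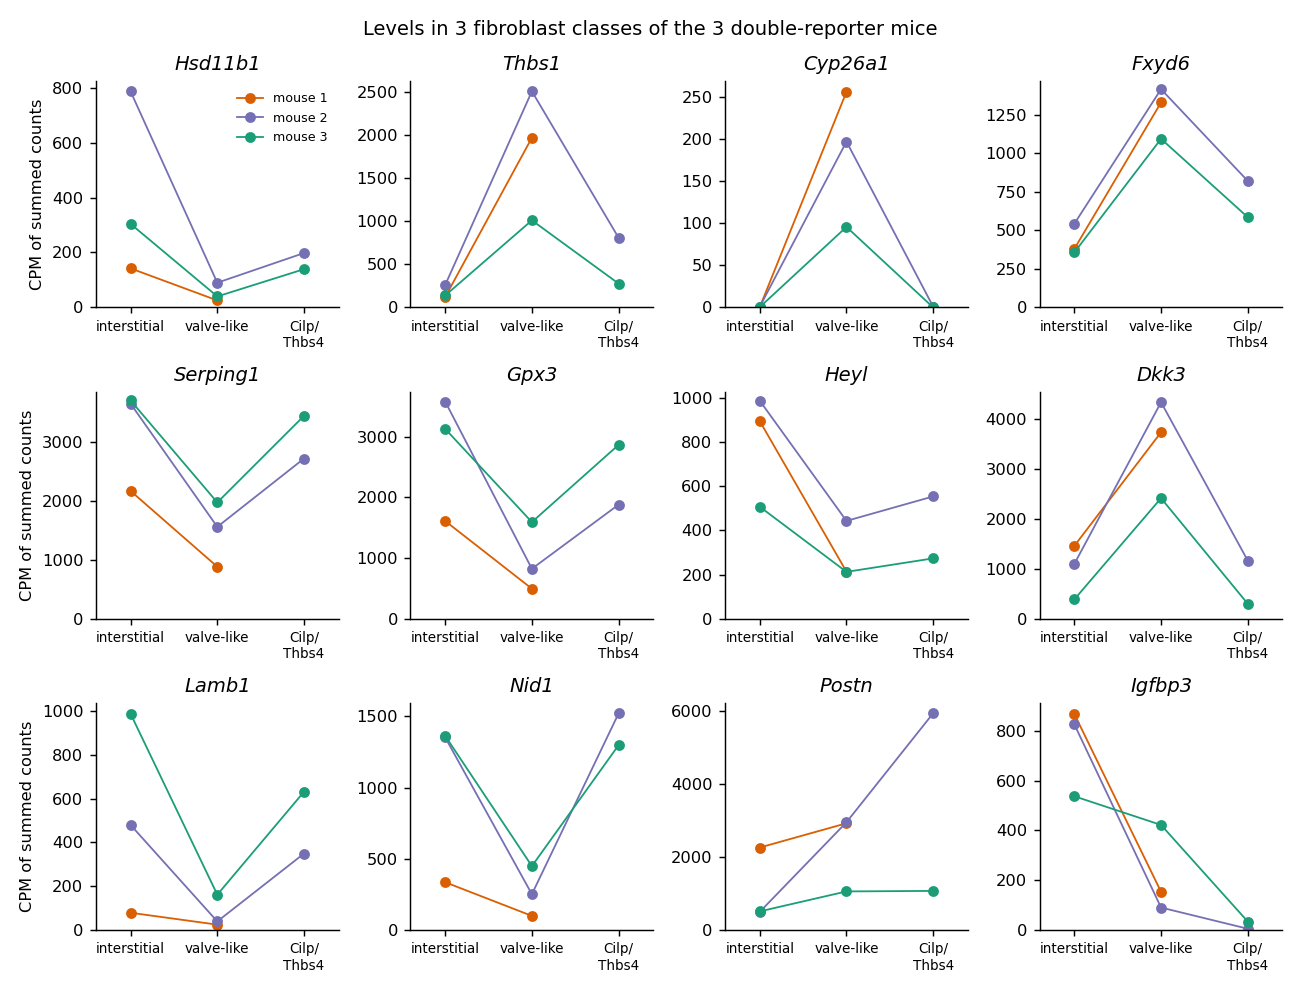
CPM of summed counts of 12 genes in the members, valve-like and Cilp/Thbs4 fibroblasts on linear axes from 0, where each line joins the classes of a double-reporter mouse and mouse 1 has no Cilp/Thbs4 sum. Hsd11b1 is higher and Thbs1, Cyp26a1 and Fxyd6 are lower in the members than in valve-like cells of each mouse.

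The 14 gene lists below are described by how many tested genes lay higher or lower in every mouse, to be read against all genes. Of the 15703 genes tested, 12.5% were higher and 17.8% lower in the members than in valve-like cells in all 3 mice. In mice 2 and 3 alone 24% were higher and 28.9% lower. The median log2 difference over all genes was -0.14. The genes of the rule and the label genes were left out of the list counts. The genes named from these lists that edgeR did not call were chosen partly after their values were seen, and DESeq2's calls are given as those of a second tool.

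Matrix genes fell into separate groups. Of 44 interstitial matrix genes, 17 were higher and 9 lower in every mouse (21 and 13 in mice 2 and 3), with a median log2 difference of 0.31. DESeq2 called Col14a1, Ogn, Podn, Tnxb, Nid1, Lama2, Lama4, Lamb1, Lamc1 and Col4a1 higher and Prelp and Abi3bp lower, and edgeR called none in the main fit. Without cells over 500 CPM of smooth muscle or pericyte markers, which left out mouse 1, edgeR called Lamb1 (3.27, adjusted p = 0.0382) and Abi3bp (-2.32, 0.0222) and no other gene of this list. Of 23 genes of cartilage, tendon and valve matrix, 1 was higher and 17 lower in every mouse (1 and 19 in mice 2 and 3), with a median of -5.68, and DESeq2 called 16 lower. The valve-like cells were themselves chosen by genes of this kind, so the direction of the list is not independent of the choice of cells.

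Basement membrane genes were singled out after their values were seen, so their count is a description. The interstitial list holds 8 (Nid1, Lama2, Lama4, Lamb1, Lamc1, Col4a1, Col4a2 and Col15a1), all of them higher in every mouse, and DESeq2 called 6. Outside the list, the laminin chain gene Lamb2 was lower in every mouse, with means of 333 against 374 CPM. Laminin is a trimer, and its beta 1 chain gene Lamb1 was 77.7, 479 and 988 CPM in the members against 23.2, 38 and 160 CPM in valve-like cells (log2 difference 2.66, edgeR adjusted p = 0.142). Lamc1, the gamma 1 chain, was 166, 698 and 736 against 79.1, 193 and 269 CPM, and Lama2 and Lama4, alpha chains, were also higher in each mouse. Nid1, nidogen, which links laminin to type IV collagen, was 334, 1353 and 1364 against 97.4, 250 and 448 CPM (log2 difference 1.93, edgeR adjusted p = 0.0915). Type IV collagen Col4a1 was 372, 436 and 566 against 66.5, 158 and 213 CPM. Per cell Lamb1 reached 100 CPM in 3 of 14, 12 of 23 and 78.8% of members and in 5 of 60, 5 of 73 and 17 of 55 valve-like cells. In mice 1 and 2 it was also found at that level in 31 of 176 and 6 of 77 cells with under 100 CPM of Dcn.

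Differences in the fibrillar collagens Col1a1 and Col3a1 did not pass the edgeR test. DESeq2 called the fibrillar collagen genes Col2a1, Col11a1 and Col11a2 of the cartilage and valve list lower in the members, and edgeR did not call them. Col1a1 was 2601, 2368 and 2251 CPM in the members and 2466, 4497 and 2613 CPM in valve-like cells (edgeR adjusted p = 0.958), and Col3a1 was 2890, 2785 and 2405 against 1212, 2358 and 2355 CPM (0.849). Lum, at 1785, 3101 and 2642 against 2248, 2875 and 3151 CPM, crossed over between mice. Prelp, a proteoglycan of cartilage and basement membrane, was 2268, 2741 and 2104 against 5626, 7741 and 4581 CPM, a log2 difference of -1.30 at an edgeR adjusted p of 0.0505.

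Within the cartilage and valve list, Comp, a pentameric matrix protein of cartilage and tendon, was 77.4, 238 and 60.6 CPM in the members and 1594, 1851 and 1977 CPM in valve-like cells (log2 difference -4.21, edgeR adjusted p = 0.0795). Only 1 of 14, 2 of 23 and 7.58% of members reached 100 CPM of Comp, so its sum came from few cells. Fmod, fibromodulin, was 207, 1376 and 84.8 against 2552, 4393 and 1637 CPM. Without cells over 500 CPM of smooth muscle or pericyte markers, which left out mouse 1, edgeR called Comp (-5.81, adjusted p = 0.000732), Fmod (-5.04, 0.000362) and Cytl1 (-4.52, 0.0369) of this list. Cilp2 was 0, 0.173 and 0.522 against 89.8, 97.0 and 153 CPM. Matn2, matrilin 2, was the member of this list that was higher in every mouse, at 619, 735 and 654 against 302, 388 and 462 CPM.

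Among complement genes, Serping1 was one of the 15 highest of all genes per kilobase. It was 2171, 3656 and 3711 CPM (mean 3179 ± 873 SD, n = 3 mice) against 882, 1561 and 1976 CPM in valve-like cells (mean 1473 ± 552), a log2 difference of 1.16 (SE 0.124, edgeR adjusted p = 0.0615). At least 100 CPM of it was found in 13 of 14, 23 of 23 and 100% of members, and also in 142 of 176 and 69 of 77 cells with under 100 CPM of Dcn in mice 1 and 2. C3, the central component, was 149, 1122 and 924 against 84.1, 306 and 333 CPM, and was at 100 CPM or more in 1 of 14, 14 of 23 and 57.6% of members and in none of those background cells. The protease genes C1s1 (210, 660 and 502 against 34.8, 55.3 and 184 CPM) and C1ra (238, 396 and 281 against 48.3, 95.1 and 120 CPM) were also higher in each mouse. Clu, clusterin, ran the other way, at 614, 79.5 and 13.7 against 1671, 1494 and 977 CPM. Without cells over 500 CPM of smooth muscle or pericyte markers, which left out mouse 1, its log2 difference was -5.69 (edgeR adjusted p = 9.66e-05). Of the 16 complement genes tested, 5 were higher and 4 lower in every mouse, with a median log2 difference of 0.23, and edgeR called none in the main fit.

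Of 18 chemokine and cytokine genes, 6 were higher and 1 lower in every mouse (6 and 2 in mice 2 and 3), with a median of 0.50. Cxcl1, a neutrophil chemokine, was steady in the members at 323, 304 and 323 CPM and was 16.6, 16.1 and 168 CPM in valve-like cells (log2 difference 3.38, edgeR adjusted p = 0.341, DESeq2 adjusted p = 1.18e-05). Its log2 difference was 2.84 without mouse 1 and -0.06 without all cells over 500 CPM of mural markers. Cxcl12, a chemokine that holds leukocytes and progenitors in tissue, was 377, 692 and 289 against 507, 450 and 314 CPM and crossed over between mice. Ccl11, an eosinophil chemokine, was 1.79, 28.9 and 31.1 CPM against under 1 CPM in each valve-like sum.

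Growth factor genes showed no common direction, with 10 of 39 higher and 9 lower in every mouse and a median of 0.01. Igfbp3, which binds insulin-like growth factors, was 869, 827 and 538 CPM against 153, 89.4 and 422 CPM. Those sums came from few cells, since 5 of 14, 6 of 23 and 19.7% of members reached 100 CPM and the highest cell held 14526 CPM. Igfbp4 was 1659, 2072 and 2423 against 1013, 1034 and 1744 CPM. Tgfb3 (243, 102 and 166 against 529, 785 and 450 CPM) and Igf1 (348, 480 and 191 against 771, 813 and 388 CPM) were lower in each mouse.

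In the BMP and Wnt list 3 of 34 genes were higher and 14 lower in every mouse (9 and 16 in mice 2 and 3), with a median of -0.99. Frzb, a secreted Wnt antagonist, was 409, 313 and 306 against 1325, 1204 and 882 CPM (log2 difference -1.70, edgeR adjusted p = 0.0795). Dkk3, a secreted protein of the Dickkopf family, was 1455, 1095 and 384 against 3729, 4330 and 2410 CPM (-2.01, edgeR adjusted p = 0.118). Without cells over 500 CPM of mural markers the difference in Dkk3 was -4.98 (edgeR adjusted p = 0.041), and it was also called when at least 300 CPM of Pdgfra and Tcf21 was asked of every class (-1.58, 0.0497). Wif1, another Wnt antagonist, belongs to the rule.

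Of 16 retinoic acid genes tested, Cyp26a1 among them, 5 were higher and 2 lower in every mouse, and the median was -0.27. Rarres2, which encodes the chemoattractant chemerin, was 533, 595 and 592 against 355, 296 and 352 CPM, with no overlap between the classes. Aldh1a1, a retinaldehyde dehydrogenase, was 534, 779 and 440 against 1111, 789 and 398 CPM and did not keep a direction.

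Of 37 genes of lipid, steroid and xenobiotic handling, 11 were higher and 6 lower in every mouse (18 and 7 in mice 2 and 3), with a median of 0.08. Hsd11b1 was the one that edgeR called. Gpx3 was 1612, 3584 and 3133 CPM in the members (mean 2776 ± 1033) and 494, 823 and 1594 CPM in valve-like cells (mean 970 ± 564), a log2 difference of 1.63 (edgeR adjusted p = 0.118, DESeq2 adjusted p = 3.13e-07). At 100 CPM or more it was found in 11 of 14, 22 of 23 and 97.0% of members, against 22 of 60, 34 of 73 and 39 of 55 valve-like cells. The glutathione transferases Gstm1 (1090, 1341 and 1304 against 680, 684 and 769 CPM) and Gstm2 (432, 387 and 368 against 88.5, 157 and 187 CPM) were higher without overlap. Apoe was 3067, 2867 and 2051 against 2508, 2950 and 2567 CPM and changed order between mice (log2 difference 0.00, edgeR adjusted p = 1).

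Transcription factors split, with 5 of 28 higher and 9 lower in every mouse and a median of -0.10. Heyl, a target of Notch, was 897, 989 and 508 against 213, 443 and 212 CPM (log2 difference 1.51, edgeR adjusted p = 0.118). It was also at 100 CPM or more in 107 of 176 and 55 of 77 cells with under 100 CPM of Dcn, and the difference was 0.99 without the cells that carried mural markers. Meox1, a homeobox factor of activated fibroblasts, was 300, 186 and 147 against 793, 1261 and 386 CPM. Scx, the tendon factor scleraxis, was 14.5, 0.346 and 0.154 against 194, 32.6 and 48.3 CPM. Tcf4, a partner of many helix-loop-helix factors, was 464, 323 and 412 CPM in the members. The cardiac factors were present in both classes, with Gata4 at 359, 66.7 and 212 against 329, 279 and 232 CPM and Tbx20 at 573, 212 and 222 against 600, 524 and 476 CPM.

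Of 20 myofibroblast and activation genes, 1 was higher and 7 lower in every mouse, and the median was -0.39. Postn, periostin, a matrix protein of remodelling tissue, was 2258, 490 and 504 CPM in the members and 2925, 2953 and 1053 CPM in valve-like cells. The high value was that of mouse 1, where 9 of 14 members reached 100 CPM, against 7 of 23 and 28.8%. Its log2 difference was -1.22 (edgeR adjusted p = 0.721), and -2.11 (0.0167) without the cells over 500 CPM of mural markers, which leaves out all of mouse 1. Loxl1, which crosslinks elastin, was the gene that was higher in every mouse, at 1171, 1504 and 1428 against 883, 1024 and 1031 CPM. Acta2 and Tagln, which the list shares with the smooth muscle markers, are given above.

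Among 30 metalloprotease and inhibitor genes, 9 were higher and 3 lower in every mouse (15 and 6 in mice 2 and 3), with a median of 0.34. Htra3, a secreted serine protease of that list, was 1586, 3080 and 3680 against 1033, 1643 and 2117 CPM. Adamts5, which cleaves proteoglycans, was 141, 396 and 496 against 72.0, 74.7 and 171 CPM. Timp3, a matrix-bound inhibitor, was lower at 2589, 2945 and 1701 against 4017, 5146 and 3421 CPM. Of 31 guidance, adhesion and neural contact genes, 5 were higher and 9 lower in every mouse, with a median of -0.28. Cdh11, a mesenchymal cadherin, reached 100 CPM in 2 of 14, 4 of 23 and 8.33% of members and in 39 of 60, 36 of 73 and 26 of 55 valve-like cells (log2 difference of the sums -2.59, edgeR adjusted p = 0.0915). Itgb1, the beta 1 integrin chain, was 698, 664 and 547 CPM in the members.

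Immediate early genes, which dissociation is known to induce, were high in the members and also in Cilp/Thbs4 cells. The sum of these genes had medians of 11111, 13174 and 14257 CPM per member against 6005, 4188 and 8288 in valve-like cells. In Cilp/Thbs4 cells of mice 2 and 3 the medians were 10585 and 16119 CPM, below the members in mouse 2 and above them in mouse 3. Of 27 tested, 12 were higher and 4 lower than in valve-like cells in every mouse, with a median log2 difference of 0.36. Egr1 was 1422, 3081 and 2431 against 784, 1537 and 1898 CPM, and Fos was 1440, 2676 and 2445 against 1481, 1469 and 2219 CPM.

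**Figure D4:**
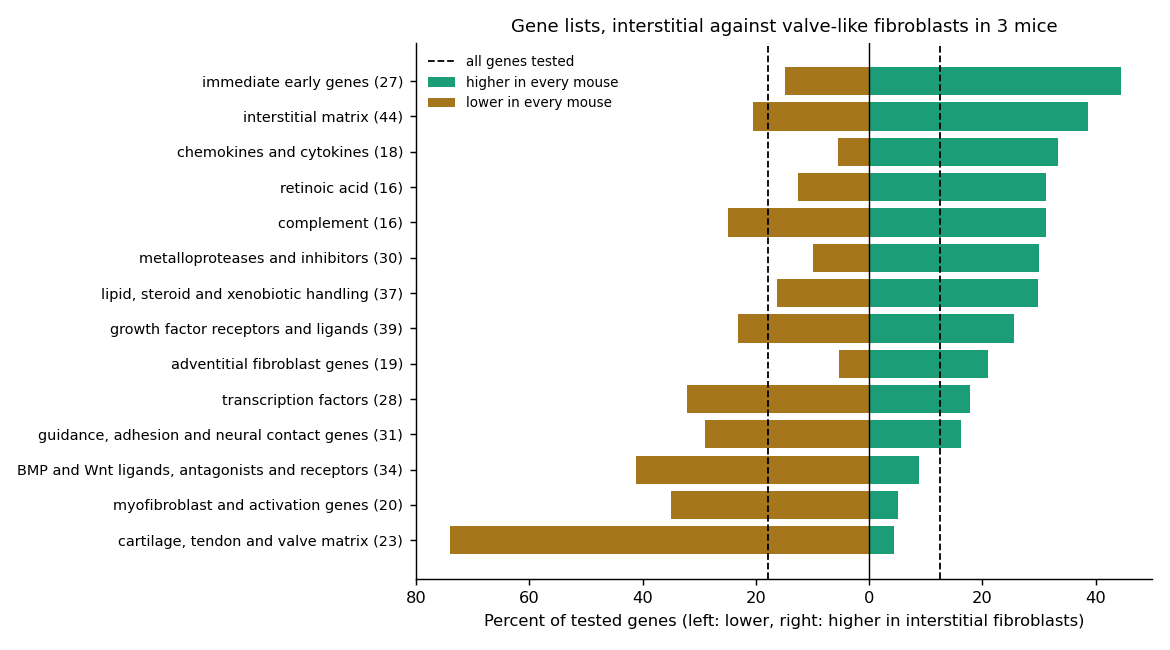
Percent of tested genes in each of 14 lists that were lower (left) or higher (right) in the members than in valve-like fibroblasts in all 3 double-reporter mice, with dashed lines at 17.8% lower and 12.5% higher for all 15703 genes. The cartilage, tendon and valve matrix list has 17 of 23 genes on the lower side, and 12 of 27 immediate early genes lie on the higher side.

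The members were next set against Cilp/Thbs4 fibroblasts. This comparison shares the members' sums with the previous one and had Cilp/Thbs4 sums from mice 2 and 3 only, of 11 and 29 cells. EdgeR called 1 of 15703 genes (0.00637%), Cilp itself, which belongs to the rule, while 669 genes had an unadjusted p under 0.05. DESeq2 called 264 higher (1.68%) and 67 lower (0.427%). Of all genes, 27.5% were higher and 19.5% lower in both mice, with a median of 0.08. The absence of calls does not show that the classes were alike, since the fit had 2 mice with both classes.

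All 6 label genes were also found in Cilp/Thbs4 cells, of which no level of Pdgfra and Tcf21 was asked. In mice 2 and 3 Cilp/Thbs4 cells held 447 and 541 CPM of Pdgfra against 902 and 549 in the members, 310 and 332 CPM of Tcf21 against 356 and 373, and 1159 and 2231 CPM of Smoc2 against 1571 and 2658. Dpep1 was 1234 and 1104 against 2152 and 1348 CPM, and Svep1 was 592 and 658 against 300 and 545 CPM. Cxcl14 changed order between the mice, at 166 and 20.5 against 98.0 and 76.1 CPM. Smoc2 reached 100 CPM in 11 of 11 and 29 of 29 Cilp/Thbs4 cells.

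Myofibroblast and activation genes had the highest share of genes lower than in Cilp/Thbs4 cells among the 14 lists. Of 20 tested, 1 was higher and 11 lower in both mice, with a median of -0.88, and DESeq2 called 7 lower (Postn, Cthrc1, Col8a1, Meox1, Thbs1, Ltbp2 and Ddah1). Postn was 490 and 504 CPM in the members of mice 2 and 3 against 5947 and 1067 in Cilp/Thbs4 cells (log2 difference -2.08, edgeR adjusted p = 0.95, DESeq2 adjusted p = 0.00898). Without cells over 500 CPM of mural markers, which left mouse 3 as the only animal with both classes, edgeR called Postn at -2.93 (adjusted p = 0.0167). Ltbp2, which binds latent TGF-beta complexes, was 40.2 and 29.0 against 1010 and 94.2 CPM, and Meox1 was 186 and 147 against 979 and 292 CPM. Thbs1 was 260 and 139 against 808 and 277 CPM (log2 difference -1.50, edgeR adjusted p = 0.95). In each of these genes the difference was greater in mouse 2, whose Cilp/Thbs4 sum held 11 cells. Type I collagen followed the same order in mouse 2 only, with Col1a1 at 2368 and 2251 against 6561 and 2048 CPM.

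In the other direction, 16 of 37 lipid, steroid and xenobiotic genes were higher and 3 lower in both mice, with a median of 0.28. Apoe was 2867 and 2051 against 1034 and 1248 CPM (log2 difference 1.13, edgeR adjusted p = 0.95, DESeq2 adjusted p = 0.00579). Hsd11b1 was 786 and 304 against 198 and 139 CPM (1.42, edgeR adjusted p = 0.95, DESeq2 adjusted p = 0.00916), so its level in the members was above that of both other classes in each mouse that had them. Of 34 BMP and Wnt genes, 14 were higher and 3 lower, with a median of 0.44, although several were low in level, such as Bmp2 at 24.8 and 13.3 against 0 and 0.551 CPM. Igfbp5 was 281 and 64.1 against 17.3 and 28.2 CPM and Igfbp3 827 and 538 against 3.94 and 32.9 CPM. Igfbp3 reached 100 CPM in 0 of 11 (which allows up to 27.3%) and 2 of 29 Cilp/Thbs4 cells.

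For the other 11 lists the counts are those in both mice. Interstitial matrix genes were higher in 8 and lower in 14 of 44 (median -0.30), cartilage and valve matrix in 3 and 5 of 23 (-0.39), and growth factor genes in 14 and 9 of 39 (0.21). Complement genes were higher in 5 and lower in 3 of 16 (0.50), chemokines in 6 and 6 of 18 (0.55), retinoic acid genes in 4 and 1 of 16 (0.44) and transcription factors in 6 and 6 of 28 (-0.22). Adventitial genes were higher in 8 and lower in 2 of 19 (0.10), metalloproteases and inhibitors in 11 and 9 of 30 (0.06), immediate early genes in 1 and 5 of 27 (0.12), and guidance genes in 8 and 8 of 31 (-0.14). Of the basement membrane genes, Lamc1 was at 698 and 736 against 668 and 557 CPM and Lama2 at 684 and 716 against 769 and 688 CPM. Neither edgeR nor DESeq2 called any basement membrane gene of the interstitial list against Cilp/Thbs4 cells. Their higher level than in valve-like cells is thus not shown to be particular to the members.

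Within the class, cells differed widely in genes known from adventitial fibroblasts, the Pi16 and Dpp4 cells that lie around vessels in many organs. Of 19 such genes, 4 were higher and 1 lower than in valve-like cells in every mouse (10 and 1 in mice 2 and 3), and edgeR called none. The sum of the list had medians of 1496, 2560 and 4818 CPM per member and ran from 102 to 28480 CPM in mouse 3, a range that the valve-like cells of that mouse (median 2589) and its Cilp/Thbs4 cells (5998) overlapped. Pi16, a peptidase inhibitor, was 58.6, 876 and 2021 CPM over the members and 295, 802 and 1513 CPM in valve-like cells. It reached 100 CPM in 2 of 14, 15 of 23 and 87.9% of members. Cd248, endosialin, did so in 3 of 14, 6 of 23 and 64.4%, and Ly6a, the stem cell antigen Sca-1, in 2 of 14, 9 of 23 and 90.9%. Timp2, a metalloprotease inhibitor, was more even, at 780, 690 and 867 CPM. In mice 1 and 2, cells with under 100 CPM of Dcn reached 100 CPM of Cd248 in 69 of 176 and 25 of 77 cases and of Efhd1, another gene of the list, in 51 and 33, so neither was found in fibroblasts alone.

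Correlations across the members of mouse 3, which share a plate, describe how these genes varied together. They were chosen after the values were seen, are rank correlations over cells that are not replicates, and carry no test. Cd248 went with Efhd1 (rho = 0.54), with Gfpt2 (0.53) and with Pi16 (0.49), all genes of the adventitial list. Smoc2 went with Hsd11b1 (0.50), Lamb1 (0.48) and Svep1 (0.45). Cd248 ran against Apoe (-0.46), Heyl (-0.36) and Hsd11b1 (-0.29), while Pi16 and Smoc2 had a rho of 0.16. In mouse 2, over 23 cells, Smoc2 also went with Lamb1 (0.44), Svep1 (0.40) and Hsd11b1 (0.36), whereas Cd248 and Efhd1 had a rho of -0.21 and Cd248 and Pi16 of 0.235. Over the 14 cells of mouse 1, Smoc2 had a rho of 0.00 with Lamb1, -0.29 with Svep1 and 0.10 with Hsd11b1, and Cd248 had -0.45 with Pi16 and 0.52 with Efhd1. Cd248 and Hsd11b1 had 0.24 in mouse 1 and 0.00 in mouse 2, Cd248 and Heyl 0.10 and -0.145, and Cd248 and Gfpt2 0.18 and 0.145. Pi16 and Smoc2 were positive in each mouse (0.38 and 0.615 in mice 1 and 2) and Cd248 and Apoe negative in each (-0.36 and -0.18). Pdgfra and Tcf21, whose sum the rule bounded, had values of -0.48, 0.08 and -0.26 in mice 1, 2 and 3.

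The adventitial sum and the sum of Smoc2, Dpep1, Svep1 and Cxcl14 had a rho of -0.15 in mouse 3, -0.36 in mouse 1 and 0.59 in mouse 2, so no direction was shared by the mice. Depth moved little with either in mouse 3 (0.15 and -0.03), while the label sum ran against depth in mice 1 and 2 (-0.30 and -0.29). Mural markers other than the genes of the rule ran against the label sum in mouse 2 (-0.65) but not in mice 1 and 3 (0.12 and 0.11). In mouse 2 the members with much of the label genes were thus those with few mural transcripts.

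**Figure D5:**
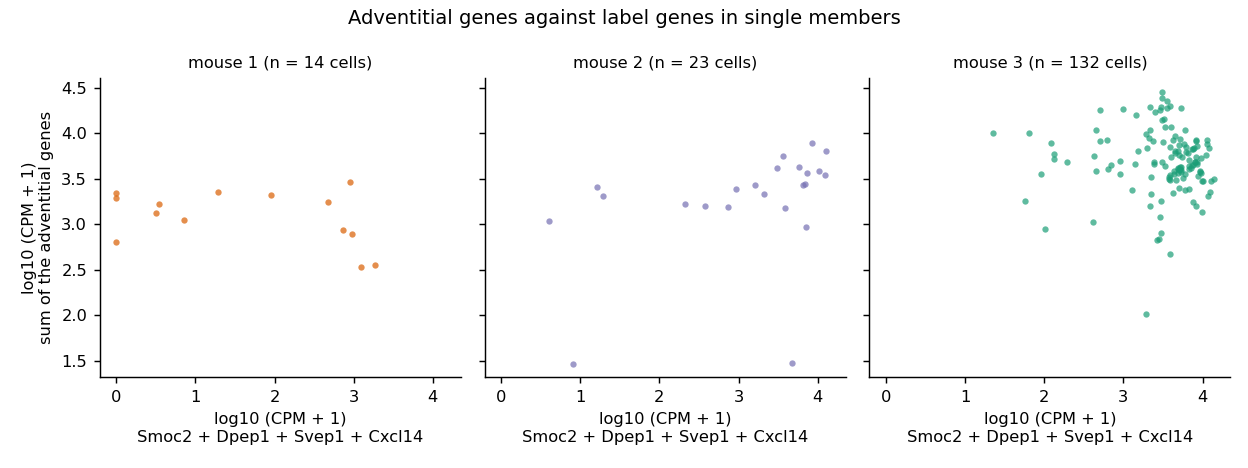
Sum of the adventitial fibroblast genes (vertical) against the sum of Smoc2, Dpep1, Svep1 and Cxcl14 (horizontal) in each member cell of double-reporter mice 1, 2 and 3, in log10(CPM + 1). Cells of mouse 1 are spread along the horizontal axis, with a median label sum of 53.3 CPM, and most cells of mouse 3 lie to the right, with a median of 4297 CPM.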

How the data were processed

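Analysis started from the deposited counts, the authors' whole-number read counts of each gene in 1307 single cells of 8 mice. The ACTA2GFP cells were counted as coming from 1 of these mice. The submitters' processing notes name GRCm38 (mm10) and the tools featureCounts, Subread, Bowtie2, Bowtie and bcl2fastq. Versions and the strand setting are not given in the sources used here. Smart-Seq2 does not mark strand, so overlapping genes on opposite strands cannot be told apart. The table held 46517 genes, 46005 with a symbol, and all cell columns matched a sample.

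Cells held 50476 to 811982 counts (median 274702), and members 62625 to 582923 (median 250534). CPM was computed per cell on its total. Members were chosen by the rule given in the report. No doublet caller was run, and leaving out cells over 500 CPM of other cell types' markers was an alternative. The counts of each class were added up within a mouse (5 cells or more) and tested with edgeR 4.0.16 in R 4.3.3 (limma 3.58.1; TMM, filterByExpr, quasi-likelihood F test, Benjamini-Hochberg threshold 0.05). The SE printed with a log2 difference is its absolute value divided by the square root of the F statistic of that test. DESeq2 1.42.0 was the alternative tool. The mouse was a block because the classes came from the same animals. Deviations of sums of the same mouse correlated with r of 0.063 to 0.173 over 15703 genes. The fit had 3 residual degrees of freedom. The test code was also run on simulated counts with known changes. Exonic lengths and positions are from the GENCODE M21 annotation. Python 3.11.15, numpy 2.4.6, scipy 1.17.1 and pandas 2.3.3 were used.

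Named by rule were in each direction the 10 called genes of greatest change that had 1 direction in every mouse and had an average log2 CPM of at least 5, the 2 called and the 2 highest genes of each of 14 lists, and the 15 highest genes per kilobase. Of the 500 names on all lists and markers, 4 had no match. The members and lists were chosen with earlier results of these data known. Leaving out cells with mural markers was an alternative chosen after seeing the data.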

Additional observations from a re-analysis of the deposited data

How the results depend on the processing

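Against valve-like fibroblasts, where edgeR called 9 of 15703 genes, DESeq2 called 555. EdgeR called 47 of 26101 genes with no filter on low counts, and the other settings tested 14221 to 17558 genes. There were 5 calls with only these classes in the fit. There were 4 with Pdgfra plus Tcf21 of at least 600 CPM, 4 with at least 150 CPM and 3 with at least 300 CPM asked of every class. It called 5 without cells over 500 CPM of other cell types' markers and 22 without cells over 500 CPM of smooth muscle or pericyte markers. With cells thinned to 50000 counts it called 16. The thinned counts only set the classes, and the sums tested held all counts of each chosen cell. Leaving out 1 mouse at a time gave 0 to 4 calls, with the 0 for mouse 2. Many of these calls were genes of the rule, which chose the cells, so the counts do not measure how stable other genes were. At 600 CPM the calls were Thbs1 and the rule's Chad, Prg4 and Wif1. With 300 CPM asked of every class they were Dkk3 and the rule's Cilp and Prg4. Without mouse 1 all calls were genes of the rule, and without mouse 3 all but the label gene Dpep1 were. Without the replicate block for the mouse, edgeR called 6, of which 5 were among the 9, and Thbs1, Hsd11b1 and Fxyd6 were not called; against Cilp/Thbs4 cells it called 1 with and without the pairing of sums by mouse. That 1 call became 331 with DESeq2, 0 with only these classes in the fit, 0 to 0 leaving out each mouse, 0 at 600 CPM of Pdgfra plus Tcf21, 0 when that sum was asked of every class, 0 with thinned cells and 3 without cells with mural markers. Where mouse 2 or 3 was left out, or the mural cells, a single mouse held both classes, and its sum was assumed to vary like the others. The share of members at 600 CPM was 1.63% in double-reporter mouse 1 and 27.4% in mouse 3. Members without mural markers made up 0%, 2.45% and 22.3% of all sorted cells of mice 1, 2 and 3. Members without other cell types' markers made up 2.72%, 5.71% and 30.95%. In both cases the cells with such markers were left out of the members but still counted among the 368, 245 and 336 sorted cells. Other choices (Dcn of at least 2000 CPM, 3 or 10 cells per sum, deep cells only) kept both counts within 1.5 times, and no value in the table of alternatives changed sign where it was called. With 3 mice, and as few as 14 members in a sum, calls depend on each animal.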

Other observations

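Some genes outside the 14 lists were chosen after their values were seen. Colec11, a collectin that starts complement activation, was 224, 198 and 23.9 CPM in the interstitial fibroblasts of double-reporter mice 1, 2 and 3, against 6.96, 20.3 and 4.04 CPM in valve-like cells and 4.85 and 0.826 CPM in the Cilp/Thbs4 cells of mice 2 and 3. It reached 100 CPM in 5, 7 and 7 interstitial cells, and also in 57 of 176 and 6 of 77 cells of mice 1 and 2 with under 100 CPM of Dcn. Pla1a, a phospholipase that acts on phosphatidylserine, was 80.2, 172 and 402 against 0.327, 3.37 and 58.7 CPM in valve-like cells. Slc43a3, a transporter of purine bases, was 755, 1691 and 990 against 379, 610 and 391 CPM (log2 difference 1.28, edgeR adjusted p = 0.0915). Npy, neuropeptide Y, reached 100 CPM in 0 interstitial cells and in 23 of 60, 14 of 73 and 4 of 55 valve-like cells, with a log2 difference of -7.91 (edgeR adjusted p = 0.115). None of these 4 passed the edgeR test against valve-like or Cilp/Thbs4 cells in the main fit. Slc43a3 passed it against valve-like cells where the classes were set after thinning cells to 50000 counts (log2 difference 1.37, edgeR adjusted p = 0.0428). The sums tested there still held all counts of each chosen cell.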
